A study of Mus musculus with 6 samples.

Results

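The olfactory epithelium of Suv420h double knockout mice was compared with that of Suv420h double heterozygotes at postnatal day 21. A gene entered where its FPKM (sequenced fragments per length of transcript and per library size) was at least 1 in either library, or at least 0.5 for olfactory receptor (Olfr) genes. The comparison held 15344 genes of 22028 symbols, made up of 929 of the 1118 Olfr symbols and 14415 other genes, of which 64 short RNA symbols were left out and 14351 were compared. Just inside the limits lay Olfr452, listed at 0 FPKM in the dKO library and at 0.503 in the dhet library, and 9930012K11Rik, at 0.699 FPKM in dKO and 1.0001 in dhet. Just outside lay Olfr340, at 0.496 FPKM in the dKO library and 0.133 in the dhet library, and Tmem182, at 0.473 FPKM in dKO and 0.999 in dhet.

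The double knockout (dKO) carried knockouts of suv420H1 and suv420H2, and the double heterozygote (dhet) 1 altered copy of each gene, so both groups carried altered alleles and no wild-type library entered. Both came from a mixed background, chiefly C57/B6, and polyadenylated RNA was sequenced. Which part of each gene was deleted, whether a Cre driver was used, and how many animals gave each library are not stated in the sources at hand. Each genotype had 1 library, so no value below has a replicate error, no test was made, and every difference is one between 2 libraries. The other 4 libraries of the series are embryonic (E18.5) and carry G9a or GLP alleles.

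Suv420h1 and Suv420h2 (now named Kmt5b and Kmt5c) turn monomethylated histone H4 lysine 20, the product of Setd8, into its di- and trimethylated forms. Trimethylated H4K20 marks pericentric heterochromatin, where the HP1 proteins that bind methylated H3 at lysine 9 recruit the Suv420h enzymes, and 53BP1 reads dimethylated H4K20 at DNA breaks. In the olfactory epithelium each mature sensory neuron transcribes chiefly one Olfr gene while the others lie in compact heterochromatin that carries H3K9 and H4K20 trimethylation. Around the neurons are sustentacular cells, basal stem cells and Bowman's glands, which secrete the mucus with its odorant-binding lipocalins, and beneath them lie bone, connective tissue and nerve bundles.

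Markers of the labelled tissue were abundant in both libraries. Omp, the marker of mature olfactory neurons, was at 1108 FPKM in the dKO library and 1124 in the dhet library. Cyp2g1, a sustentacular enzyme, was at 1305 FPKM in dKO and 1450 in dhet, and Krt5, of horizontal basal cells, at 14.3 FPKM in dKO and 15.02 in dhet. Both libraries held Xist, the transcript of the inactive X, at 112 FPKM in the dKO and 120 in the dhet. Ddx3y, on the Y, had 0.185 FPKM in the dKO library against 0 as listed for the dhet library. Eif2s3y, also on the Y, went the other way, listed at 0 in the dKO library and above 0 in the dhet library. The Y genes Kdm5d and Usp9y were listed at 0 in both.

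Outside the receptor family, 99 genes (0.69%) had a level in the dKO library 2-fold or more above that in the dhet library, and 296 (2.06%) a level 2-fold or more below it, together 2.75%, on log2(FPKM + 1), a scale that understates the differences of low genes. Counts in the lists of these genes below use the same scale, so a low gene can pass 2-fold in FPKM and not be counted. The median log2 ratio of dKO over dhet was −0.06, with 5662 genes above 0 and 8689 below. The summed FPKM of the columns was 554440 in the dKO and 490013 in the dhet. Rescaled to equal sums, every dKO log2 ratio would be lower by up to 0.18, less for low genes because of the pseudocount. List medians and genes between 0 and 0.18 can therefore change direction under that scaling. The shift is enlarged by 4833413D08Rik and the short RNA Snord99, at 14843 and 6355 FPKM in the dKO library and both listed at 0 in the dhet library. Secreted proteins of the nasal mucus were among the highest ratios, and genes of muscle, bone and connective tissue among the lowest. Chromatin, neuronal and sustentacular lists lay near the middle. A fold of this size was also frequent for the same genes among the 4 embryonic libraries, which differ in genotype. There, 32.7% of the genes higher in the postnatal dKO and 27.1% of those lower spanned 2-fold or more from lowest to highest, against 7.56% of all genes compared.

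**Figure D1:**
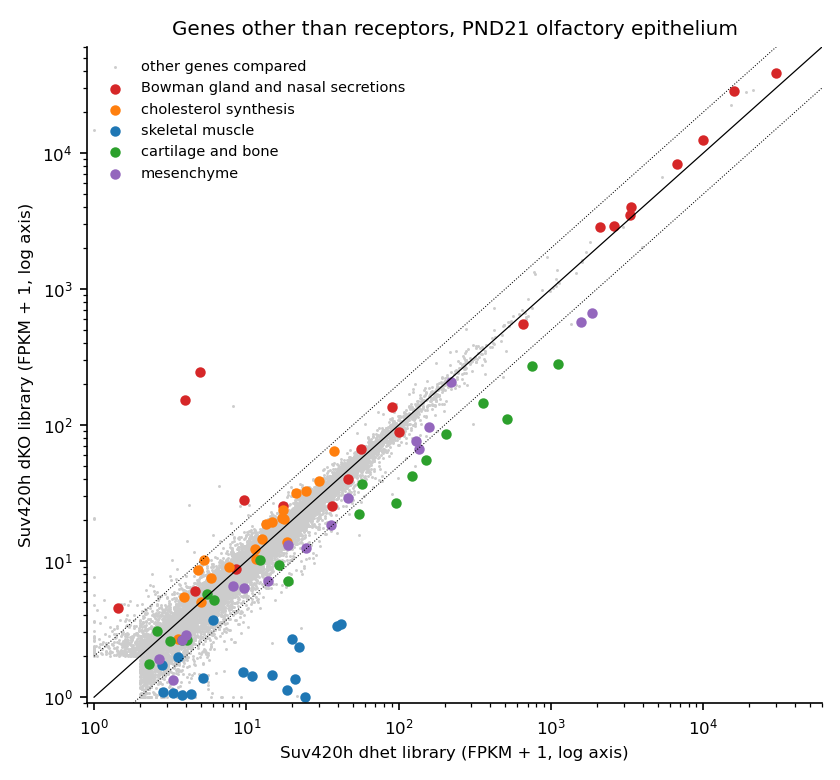
FPKM + 1 of each compared gene other than receptors in the Suv420h dKO library (vertical, log axis) against the dhet library (horizontal, log axis), with 5 gene lists in colour, the line of equality and dotted lines at 2-fold. Lcn3 and Lcn4 (243 and 151 FPKM in the dKO) stand far above the line, and the skeletal muscle genes lie below it.

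The upstream sequences of 5 genes that the results turn on are shown first: Lcn3 and Lcn4, the largest ratios among named genes other than receptors with 5 FPKM or more in either library, Insig1, the most abundant gene of the cholesterol list, and the neighbouring receptors Olfr1347 and Olfr1348. They are the 250 bases before the annotated start, 5′ to 3′ on the gene's strand, from RefSeq on GRCm38.p6, which is not the build of the deposited files (mm9). Capitals mark matches, on either strand, to ATAAAG in the lipocalins, to CCAAT (read here as ATTGG) and CACGTG in Insig1, and to TATAAA or TAATTA in the receptors.
Lcn3, chr2:25765283-25765532, plus strand: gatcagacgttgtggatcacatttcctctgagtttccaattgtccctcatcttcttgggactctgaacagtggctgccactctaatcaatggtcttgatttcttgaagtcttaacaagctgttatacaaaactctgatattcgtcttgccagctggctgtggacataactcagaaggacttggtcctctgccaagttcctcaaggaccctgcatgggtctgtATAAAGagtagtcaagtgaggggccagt
Lcn4, chr2:26671283-26671532, minus strand: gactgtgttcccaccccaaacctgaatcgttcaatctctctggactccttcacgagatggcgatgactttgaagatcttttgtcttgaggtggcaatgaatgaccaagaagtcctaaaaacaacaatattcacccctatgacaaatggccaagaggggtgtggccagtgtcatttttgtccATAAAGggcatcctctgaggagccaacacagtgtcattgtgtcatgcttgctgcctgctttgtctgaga
Insig1, chr5:28071162-28071411, plus strand: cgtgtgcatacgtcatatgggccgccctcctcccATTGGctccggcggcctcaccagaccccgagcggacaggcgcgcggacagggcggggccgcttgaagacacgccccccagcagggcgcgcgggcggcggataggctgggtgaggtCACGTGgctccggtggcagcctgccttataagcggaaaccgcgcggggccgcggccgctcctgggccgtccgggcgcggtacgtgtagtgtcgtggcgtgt
Olfr1347, chr7:6488873-6489122, minus strand: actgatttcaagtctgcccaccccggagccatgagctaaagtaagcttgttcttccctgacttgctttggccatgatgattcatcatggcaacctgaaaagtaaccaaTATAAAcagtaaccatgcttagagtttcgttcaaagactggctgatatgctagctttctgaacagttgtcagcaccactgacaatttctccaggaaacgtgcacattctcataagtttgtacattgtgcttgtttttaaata
Olfr1348, chr7:6502225-6502474, minus strand: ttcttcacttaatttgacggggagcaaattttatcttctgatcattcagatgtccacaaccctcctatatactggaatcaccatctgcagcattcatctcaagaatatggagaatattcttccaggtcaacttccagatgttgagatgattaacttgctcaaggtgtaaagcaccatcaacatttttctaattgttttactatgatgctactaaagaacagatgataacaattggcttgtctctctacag
The ATAAAG of Lcn3 lay 28 bases before the start, where a TATA box usually sits, and that of Lcn4 69 bases before it. In the window from 250 bases before to 50 after the start, ATAAAG was found in 6 of 12 lipocalin and major urinary protein promoters with a RefSeq entry, against 15.4% of all 27025 promoters in the table. TATAAA, which overlaps ATAAAG where the letters TATAAAG occur, was also found in 6 of these 12, against 15.7% of all. CCAAT, the site of the factor NF-Y, was found in 12 of the 13 cholesterol promoters with an entry, against 41.1% of all promoters, and CACGTG in 4 of 13, against 8.09%. Neither motif was particular to the cholesterol list: among 18 circadian clock promoters, CCAAT was found in 14 and CACGTG in 6. Among all genes compared with an entry, the shares were 42.7% and 10.7%. These matches describe the letters only.

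The enzymes of H4K20 methylation themselves differed little between the libraries. Suv420h1 (mm9 chromosome 19, 3767421 to 3818303) stood at 30.6 FPKM in the dKO library and 31.0 in the dhet library, a log2 ratio of −0.02. Suv420h2 (chromosome 7, 4691729 to 4699116) stood at 7.35 FPKM in the dKO library and 7.92 in the dhet library, a log2 ratio of −0.10. A gene-level FPKM also counts transcript from outside a deleted part, so these values do not check the labels. Setd8, the monomethylase that acts before them, was at 46.6 FPKM in the dKO library and 45.6 in the dhet library. Trp53bp1, which encodes 53BP1, was at 18.7 FPKM in dKO and 18.6 in dhet, and the H4K20 demethylases Phf8 and Phf2 were at 15.2 FPKM in dKO and 16.5 in dhet, and at 20.9 FPKM in dKO and 21.96 in dhet. Of the 16 measured genes of the list, none was 2-fold apart, and the lowest log2 ratio was −0.38, that of L3mbtl3, a reader of methylated histones. L3mbtl, also on the list, was listed at 0 in the dKO and stayed under 1 FPKM in both libraries.

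Neighbouring parts of the heterochromatin machinery showed no 2-fold difference either. Of 28 H3K9 methylation and HP1 genes, 0 were 2-fold apart and the median was −0.08, close to that of all genes. The lowest was Cbx1, which encodes HP1 beta, at 17.5 FPKM in the dKO library and 26.5 in the dhet library, a log2 ratio of −0.57. Cbx5 (HP1 alpha) was at 18.498 FPKM in the dKO library and 20.01 in the dhet library, and Cbx3 (HP1 gamma) at 75.9 FPKM in dKO and 73.7 in dhet. Dnmt3a, a DNA methyltransferase, was at 32.3 FPKM in dKO and 35.6 in dhet, and Setdb1, an H3K9 trimethylase, at 15.98 FPKM in dKO and 13.8 in dhet. Of 22 nuclear envelope genes 0 were 2-fold apart (median −0.03). Lbr, the lamin B receptor that mature olfactory neurons silence, was at 12.3 FPKM in the dKO library and 12.7 in the dhet library. Lmna, which encodes lamin A and C, was the lowest of that list at 15.8 FPKM in dKO and 21.3 in dhet.

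The lists of the DNA damage response also held no gene 2-fold apart. The p53 target list had 28 measured genes and a median of −0.05, and the double-strand break repair list 24 and −0.06. Cdkn1a, which arrests the cell cycle when p53 is active, was at 19.8 FPKM in the dKO library and 24.7 in the dhet library. Gadd45a was at 10.4 FPKM in dKO and 17.1 in dhet. Among the 329 Zfp genes measured, many of which encode zinc finger repressors, 0 were 2-fold apart and the median was −0.05.

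The neuronal lists lay on either side of 0 by less than 0.1. Of 24 mature neuron markers 0 were 2-fold apart (median 0.07). Adcy3, the adenylate cyclase of odour transduction, was at 189 FPKM in the dKO library and 190 in the dhet library. Kirrel2, an adhesion molecule whose level follows neuronal activity, was the highest of the list at 119 FPKM in the dKO library against 78.3 in the dhet library. Nrcam, a cell adhesion molecule of axons, was the lowest at 2.57 FPKM in dKO and 5.33 in dhet, a log2 ratio of −0.83 on log2(FPKM + 1). Of 21 immature neuron genes (median −0.04), 15 globose basal progenitor genes (median −0.09) and 12 horizontal basal cell genes (median −0.004), 0 were 2-fold apart. Gap43, of growing axons, was at 114 FPKM in the dKO library and 99.6 in the dhet library.

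Factors known to act in the choice of a receptor gene were at like levels. Of 17 such genes 0 were 2-fold apart, and 11 lay above 0 (median 0.09). Lhx2, which binds receptor promoters and enhancers, was at 86.1 FPKM in the dKO library and 88.1 in the dhet library, and its partner Ldb1 at 59.2 FPKM in dKO and 54.5 in dhet. Kdm1a, the demethylase that acts when a receptor is first switched on, was at 39.1 FPKM in dKO and 39.5 in dhet. Atf5, translated once a receptor protein is made, was at 298 FPKM in dKO and 277 in dhet, and Rtp1 and Rtp2, which carry receptors to the membrane, were at 173 FPKM in dKO and 161 in dhet, and at 128 FPKM in dKO and 111 in dhet.

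Receptors were far more often 2-fold apart than other genes, though on another scale, log2(FPKM + 0.1). Of the 929 compared, 179 (19.3%) were higher in the dKO and 124 (13.3%) lower, together 32.6%. The median log2 ratio was 0.16. With both libraries divided by their summed receptor FPKM, 129 were higher and 162 lower, so the larger direction turned under that scaling. Low receptors carried most of the spread. Of 74 receptors with a mean under 0.5 FPKM, 27 were higher and 32 lower. Each of these 74 reached 0.5 FPKM in 1 library alone, so the entry rule itself sets part of their spread. Between 2 and 5 FPKM 44 of 273 were higher and 12 lower. Of the 41 receptors at 10 FPKM or more none was 2-fold apart, and 37 of them were above 0, with a median log2 ratio of 0.44. Other genes set on the same scale between 2 and 5 FPKM were 2.09% higher and 7.92% lower. On a short gene 1 FPKM stands for fewer fragments, and receptor transcripts are short; the comparison with other genes was not corrected for this.

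**Figure D2:**
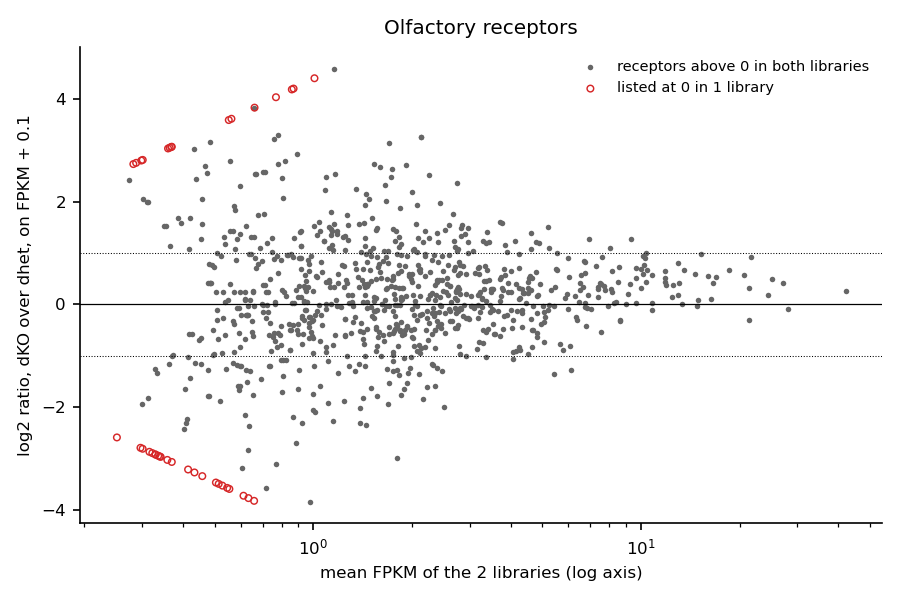
Log2 ratio of each of the 929 compared receptors, dKO over dhet on FPKM + 0.1 (vertical), against its mean FPKM in the 2 libraries (horizontal, log axis). Open red circles are receptors listed at 0 in 1 library, dotted lines mark 2-fold, and the spread narrows to the right, where 37 of 41 receptors at 10 FPKM or more lie above 0.

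The fragments behind these values could be counted, because low receptor values fall in steps of 1 fragment. They came to 28955 in the dKO library and 29612 in the dhet library over 972 receptors with a span under 1100 bp. A single fragment was worth more FPKM in the dKO library, so its fewer receptor fragments gave the higher summed receptor level. Intervals below are exact 95% binomial intervals on these estimated fragments and cover counting error alone. Olfr536 (chromosome 7, 147686752 to 147693217), the most abundant receptor, was at 45.9 FPKM in the dKO library and 38.3 in the dhet library. Olfr6 was at 22.8 FPKM in dKO and 14.3 in dhet, a ratio of 1.59 (interval 1.33 to 1.92), and Olfr726 at 24.7 FPKM in dKO and 16.5 in dhet, a ratio of 1.497 (1.26 to 1.77). Olfr166 was at 27.2 FPKM in the dKO library and 28.9 in the dhet library, a ratio of 0.939 whose interval of 0.812 to 1.08 holds 1. The 50 most abundant receptors of each library shared 38 members, and of the 62 in their union 50 were higher in the dKO and 5 were 2-fold apart in either direction.

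The largest receptor ratios at 2 FPKM or more rested on few fragments in 1 of the libraries. Olfr642 was at 3.13 FPKM in the dKO library and 0.265 in the dhet library, 39 fragments in dKO and 4 in dhet, a ratio of 11.8 (4.27 to 45.5). Olfr732 was at 3.07 FPKM in dKO and 0.411 in dhet, 42 fragments in dKO and 7 in dhet, a ratio of 7.46 (3.24 to 19.2). These receptors were chosen for their ratios, so the intervals describe the depth behind them and test nothing. Among the lowest ratios, Olfr134 was at 0.324 FPKM in the dKO library and 3.27 in the dhet library, 4 fragments in dKO and 49 in dhet, a ratio of 0.099 (0.0259 to 0.27). Olfr49 was at 0.943 FPKM in dKO and 4.06 in dhet, 13 fragments in dKO and 67 in dhet, a ratio of 0.232 (0.119 to 0.43). Olfr305 and Olfr1320 had identical values, 3.94 FPKM in the dKO and 0.325 in the dhet, as had 7 receptor pairs in all, and such pairs entered the counts as separate symbols. Of the 929 receptors compared, 715 passed 0.5 FPKM in both libraries, 108 in the dKO library alone and 106 in the dhet library alone. Those passing in 1 library alone include the 74 with a mean under 0.5 FPKM. No matching share for other genes is given here.

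Receptor genes lie in clusters, here taken as runs with gaps under 1 Mb, and the 13 clusters with 20 or more compared receptors held 723 of them. Summed FPKM was higher in the dKO library in 12 of these 13, with ratios of dKO over dhet from 0.908 on chromosome 9 (18559136 to 20140538) to 1.48 on chromosome 2 (36232298 to 37188252). The class I receptors, the fish-like family in a single cluster on chromosome 7 (109625287 to 112517831), summed to 171 FPKM in the dKO library and 130 in the dhet library, a ratio of 1.31. Of their 99 compared members, 29 were higher and 11 lower, with a median of 0.36, where 19.3% of all receptors were higher and 13.3% lower with a median of 0.16. The class II cluster next to it (113821048 to 116037919) summed to 133 FPKM in the dKO library and 94.5 in the dhet library, with 16 of 51 higher and 6 lower, 31.4% and 11.8%. Divided by the ratio of all receptors, 1.17, the sums of 5 of the 13 clusters stayed above 1. On chromosome 11 (73164361 to 74179111) 7 of 26 (26.9%) were higher and 8 (30.8%) lower, and the sums were 38.3 FPKM in dKO and 38.2 in dhet.

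**Figure D3:**
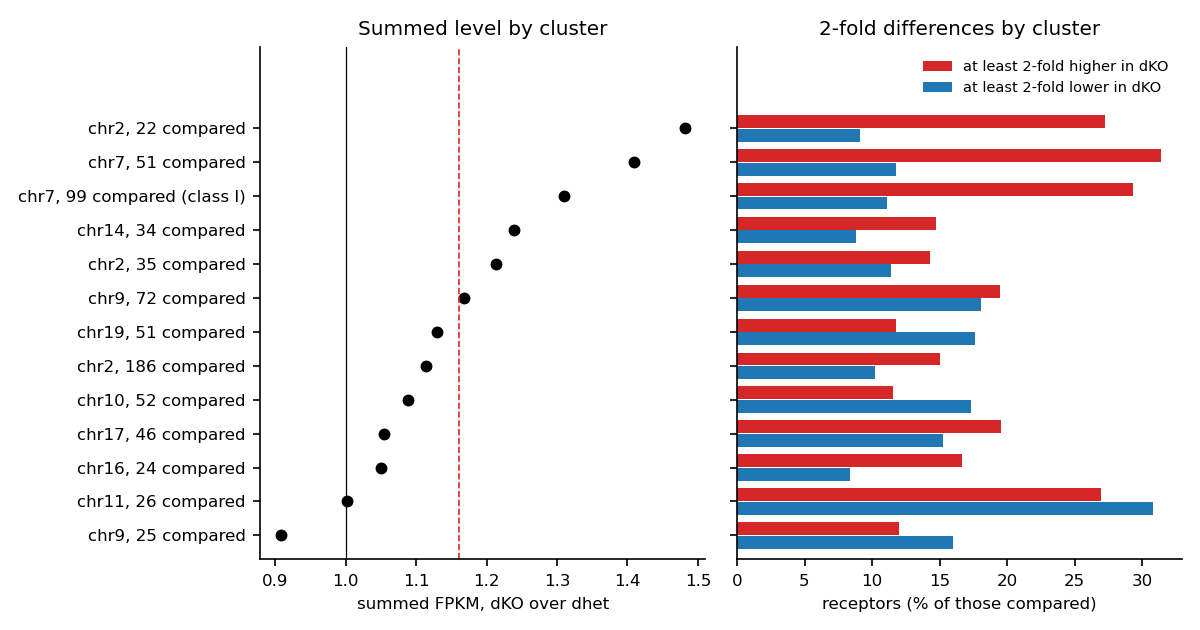
The 13 receptor clusters with 20 or more compared members, by chromosome and number compared. Left, summed FPKM in dKO over dhet, with 1 as a solid line and the ratio over all 13 clusters, 1.16, as a dashed red line; right, the share of receptors at least 2-fold higher (red) and lower (blue) in the dKO.

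Near the start of chromosome 7 (6392613 to 6523630), a group of 8 receptors chosen after its values were seen had the highest sum ratio among clusters of 5 or more, 64.6 FPKM in the dKO library and 36.3 in the dhet library, a ratio of 1.78. Olfr1348 was at 28.5 FPKM in the dKO library and 15.002 in the dhet library, a ratio of 1.90 (1.60 to 2.25), and its neighbour Olfr1347 at 20.2 FPKM in dKO and 10.3 in dhet, a ratio of 1.97 (1.61 to 2.43). Olfr1346 was at 6.85 FPKM in dKO and 2.92 in dhet, a ratio of 2.34 (1.61 to 3.45). The group was not uniform: 5 of the 8 were above 0 and 3 below, among them Olfr1350 at 0.904 FPKM in the dKO library and 1.42 in the dhet library. In the stretches printed above, a TATAAA lay 142 bases before the annotated start of Olfr1347, and neither TATAAA nor TAATTA was found in that of Olfr1348. Whether the annotated start of a receptor is its transcription start or a later exon was not checked. Where it is a later exon, the letters before it are not promoter. The same limit holds for the shares that follow. Over 779 receptor promoters with an entry, TATAAA was found in 40.9% and TAATTA, the core that homeodomain factors such as Lhx2 bind, in 18.7%. By direction, TAATTA was found in 28 of 152 promoters (18.4%) of receptors higher in the dKO. It was in 27 of 99 (27.3%) of those lower and 91 of 528 (17.2%) of those within 2-fold. For TATAAA the shares were 43.4%, 44.4% and 39.6% in the same order, and for ATAAAG 28.9%, 28.3% and 30.9%. Further motifs were also searched, and no difference between these shares was tested.

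Transcripts of nasal mucus proteins summed to more in the dKO library. Of 21 measured Bowman gland and secretion genes, 4 stood 2-fold or more higher and 0 lower, against 0.69% and 2.06% of all genes other than receptors, and 17 lay above 0 (median 0.33). They summed to 103030 FPKM in the dKO library and 75000 in the dhet library, 18.6% and 15.3% of all FPKM. Obp1a, an odorant-binding protein and the most abundant gene, was at 38936 FPKM in the dKO library and 30147 in the dhet library. Mup5, a major urinary protein, was at 28705 FPKM in dKO and 15860 in dhet, a log2 ratio of 0.86, and all Mup symbols together summed to 37190 FPKM in dKO and 22707 in dhet. Most of that sum was Mup5 and Mup4, the latter at 8279 FPKM in dKO and 6727 in dhet. The other 17 Mup symbols, mostly near-identical copies, summed to 207 FPKM in dKO and 120 in dhet. Plunc, an antimicrobial protein of the upper airway, was at 3517 FPKM in dKO and 3275 in dhet.

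Low dhet values gave the largest ratios of that list. Lcn3 (chromosome 2, 25621089 to 25623619), a lipocalin known from vomeronasal and posterior nasal glands, was at 243 FPKM in the dKO library and 3.96 in the dhet library, a log2 ratio of 5.62. Lcn4 (chromosome 2, 26523194 to 26526802), found in the same glands, was at 151 FPKM in the dKO library and 2.96 in the dhet library, a log2 ratio of 5.26. Vomeronasal receptors, the Vmn genes of the vomeronasal organ, also had a higher sum in the dKO library, 10.4 FPKM against 5.83 in the dhet library over 320 symbols. The measured ones were Vmn1r21, at 2.49 FPKM in dKO and 0.990 in dhet, and Vmn2r29, at 1.18 FPKM in dKO and 0.416 in dhet, and 277 symbols in dKO and 269 in dhet were listed at 0. Both measured ones passed the minimum of 1 FPKM through the dKO library alone, which fixes their direction. What bearing these receptor values have on the lipocalin values was not tested. Dmbt1, a mucosal scavenger protein, was at 27.3 FPKM in dKO and 8.69 in dhet, and the gel-forming mucin Muc5ac at 3.50 FPKM in dKO and 0.433 in dhet. The other 4 of the 21 lay below 0 with smaller ratios, among them Reg3g, an antibacterial lectin, at 553 FPKM in the dKO library and 649 in the dhet library. Muc2 was at 88.5 FPKM in the dKO library and 99.1 in the dhet library, Pigr, which carries immunoglobulin A across epithelia, at 24.4 FPKM in dKO and 35.5 in dhet, and Aqp5, a water channel of gland cells, at 39.0 FPKM in dKO and 45.6 in dhet.

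Of secreted proteins outside that list, Crisp1 and Klk1 were among the 15 highest ratios, which fixes their direction. Crisp1 (chromosome 17, 40430707 to 40456156), a cysteine-rich secretory protein, was at 137 FPKM in the dKO library and 7.12 in the dhet library, a log2 ratio of 4.08. Klk1 (chromosome 7, 51480807 to 51484987), the tissue kallikrein of gland ducts, was at 34.8 FPKM in dKO and 5.605 in dhet, and the Klk1 family, again close copies, summed to 43.8 FPKM in dKO and 8.30 in dhet. The lipocalin and Mup family as a whole had 6 of 16 members at least 2-fold higher and 0 lower, 15 above 0 and a median of 0.73, against 0.69% higher among all genes other than receptors; with a minimum of 5 FPKM the median was 0.45. In the same samples sustentacular genes were level, with 0 of 30 apart and a median of 0.09, as were respiratory ciliated cell genes, with 0 of 26 and −0.08. In bulk tissue, fewer cells of a type and less RNA per cell cannot be told apart.

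**Figure D4:**
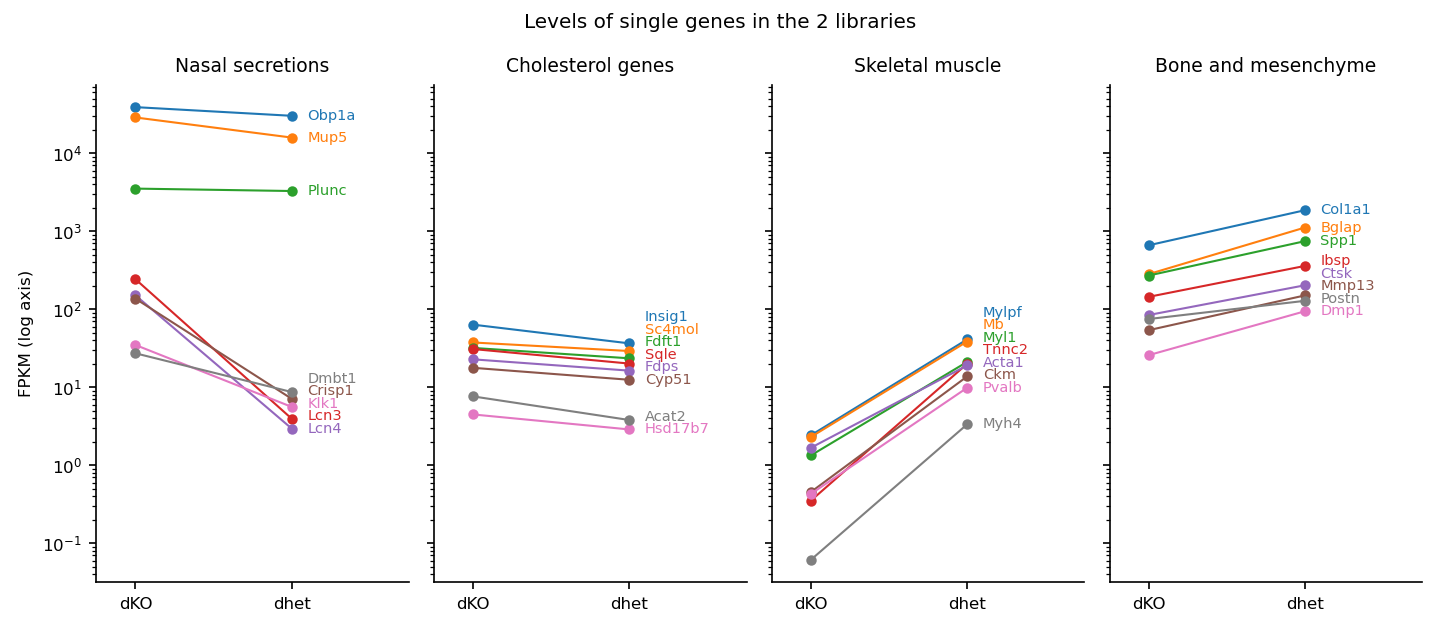
FPKM (log axis) of 32 genes in the dKO library (left point) and the dhet library (right point), in panels for nasal secretions, cholesterol genes, skeletal muscle, and bone and mesenchyme. The genes were chosen for display, and list members that went the other way, among them Reg3g, Muc2, Pigr, Aqp5, Ebp, Mvd and Col9a1, are not drawn. Of the genes drawn, lines fall to the right for secretion and cholesterol genes and climb to the right for muscle, bone and mesenchyme genes.

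Genes of the cholesterol list were mostly higher in the dKO library by less than 2-fold. Of 20 measured, 0 were 2-fold apart, 16 lay above 0 and the median was 0.35. Insig1, which holds the sterol-sensing SREBP complex in the endoplasmic reticulum and is itself an SREBP target, was at 63.4 FPKM in dKO and 36.5 in dhet, a log2 ratio of 0.78. Sqle, squalene epoxidase, was at 30.9 FPKM in the dKO library and 20.1 in the dhet library, and Fdft1, squalene synthase, at 31.9 FPKM in dKO and 23.5 in dhet. The exceptions included Ebp, a sterol isomerase, at 12.9 FPKM in the dKO library and 17.4 in the dhet library, and Mvd, of the mevalonate steps, at 1.67 FPKM in dKO and 2.57 in dhet.

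Genes of tissues beneath or beside the epithelium were among the lowest ratios. Lists of other tissues together with the collagens covered 199 compared genes, of which 46 were among the 296 lower ones and 7 among the 99 higher ones. Of all genes other than receptors 2.06% were lower and 0.69% higher, so these lists held more than that share in both directions. The same shares stand against the list counts that follow. Skeletal muscle stood lowest, with 15 of 18 genes at least 2-fold lower, all 18 below 0 and a median of −2.77. Its genes summed to 15.1 FPKM in the dKO library and 239 in the dhet library. Mylpf, a fast myosin light chain (chromosome 7, 134355122 to 134357801), was at 2.42 FPKM in dKO and 41.1 in dhet, and Ckm, muscle creatine kinase, at 0.455 FPKM in dKO and 13.8 in dhet. Tnnt3, fast troponin T, was listed at 0 in the dKO library and at 23.3 FPKM in the dhet library. Its deposited locus is shared with Gm14492 and Lsp1, and the locus summed to 11.4 FPKM in dKO and 34.9 in dhet. No muscle gene of the list was higher in the dKO library, and the smallest differences were those of Actn3 and Pygm, at 0.709 FPKM in dKO and 1.80 in dhet, and at 2.68 FPKM in dKO and 5.04 in dhet.

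Bone and connective tissue showed the same direction at far higher levels. Of 20 cartilage and bone genes, 10 were at least 2-fold lower and 0 higher, with a median of −1.03, and they summed to 1107 FPKM in the dKO library and 3473 in the dhet library. Osteocalcin, from the near-identical Bglap and Bglap2, summed to 391 FPKM in dKO and 1625 in dhet. Dmp1, of osteocytes, was at 25.8 FPKM in the dKO library and 94.2 in the dhet library, and Ctsk, the collagen-cutting protease of osteoclasts, at 84.3 FPKM in dKO and 203 in dhet. Of genes known from cartilage, Acan, its main proteoglycan, was at 1.63 FPKM in dKO and 2.80 in dhet, Col9a1, a cartilage collagen, at 2.07 FPKM in dKO and 1.61 in dhet, and Col10a1, of growth plate cartilage, at 2.08 FPKM in dKO and 6.14 in dhet, in a deposited locus shared with Nt5dc1. Of 17 mesenchyme genes 4 were at least 2-fold lower and all 17 were below 0 (median −0.71). Col1a1, the main collagen of bone and dermis, was at 660 FPKM in the dKO library and 1858 in the dhet library, whereas Dcn, a fibroblast proteoglycan, was at 207 FPKM in dKO and 219 in dhet. Of 32 collagen genes 9 were lower and 0 higher (median −0.66). Serpinh1, the collagen chaperone, was at 40.0 FPKM in the dKO library and 98.5 in the dhet library.

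Genes of neural tissue outside the epithelium were also lower in the dKO library. Of 16 forebrain and olfactory bulb genes 5 were at least 2-fold lower and all 16 were below 0 (median −0.71), with sums of 149 FPKM in the dKO library and 229 in the dhet library. Gad1, which makes the transmitter GABA, was at 7.06 FPKM in dKO and 18.7 in dhet, and Slc6a11, a GABA transporter of glia, at 4.18 FPKM in dKO and 14.4 in dhet. Ensheathing and Schwann cell genes had a median of −0.43, with Fabp7, a lipid carrier of glia, at 149 FPKM in the dKO library and 203 in the dhet library. Sox10, which marks these glia, was at 9.38 FPKM in dKO and 8.26 in dhet. Endothelial genes had 0 of 14 apart and a median of −0.42. Alpha globin summed to 2062 FPKM in the dKO library and 4001 in the dhet library. These lists move with the library, and their part in any other difference between the libraries was not tested.

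**Figure D5:**
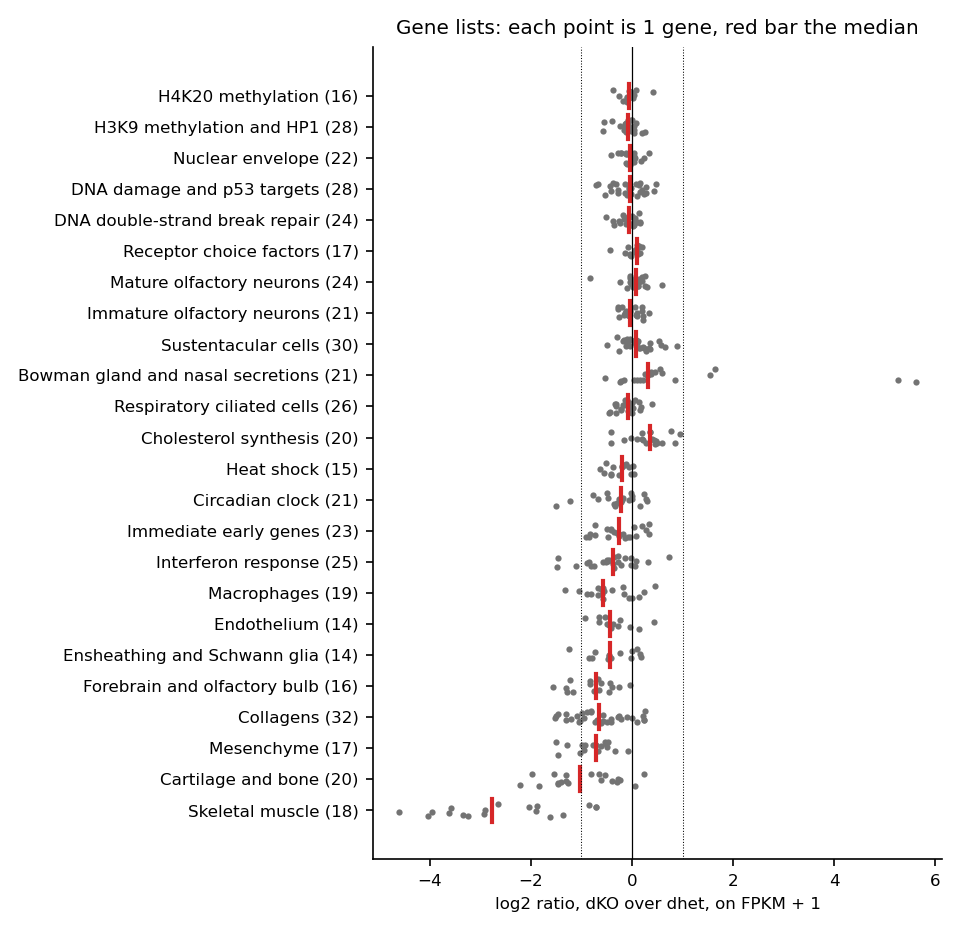
Log2 ratio of dKO over dhet on FPKM + 1 (horizontal) for each measured gene (grey point) of 24 gene lists, with the number measured in brackets, the list median as a red bar and dotted lines at 2-fold. Chromatin, neuronal and sustentacular lists sit at 0, and muscle, bone, mesenchyme and forebrain lists lie to the left.

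The macrophage and interferon lists lay below the median of all genes. Of 19 macrophage genes 2 were at least 2-fold lower and 0 higher (median −0.57), where 2.06% and 0.69% of all genes other than receptors were. Trem2, a lipid receptor of macrophages and osteoclasts, was at 0.681 FPKM in the dKO library and 3.19 in the dhet library, and Csf1r at 8.02 FPKM in dKO and 12.6 in dhet, while Lyz2, lysozyme, was at 185 FPKM in dKO and 157 in dhet. Of 25 interferon-response genes 3 were lower and 0 higher (median −0.38), set against the same shares. Bst2, which tethers budding virus, was at 1.04 FPKM in the dKO library and 4.62 in the dhet library, but Ifit1 was at 15.9 FPKM in dKO and 12.5 in dhet.

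Lists that respond to the state of the animal or the handling of tissue had medians nearer to that of all genes. Of 21 circadian clock genes 2 were at least 2-fold lower and 0 higher (median −0.21), where 2.06% and 0.69% of all genes other than receptors were. Nr1d1, the clock repressor REV-ERB alpha (chromosome 11, 98629249 to 98636556), stood at 7.20 FPKM in the dKO library and 18.1 in the dhet library. Dbp, an output factor of the clock, was at 4.90 FPKM in dKO and 15.8 in dhet and shares its deposited locus with another symbol. Arntl (BMAL1), which peaks in the opposite phase, was at 6.71 FPKM in the dKO library and 5.92 in the dhet library, and Per1 at 11.8 FPKM in dKO and 12.0 in dhet. Of 15 heat shock genes 13 were below 0 (median −0.21), with Hsp90aa1 at 141 FPKM in the dKO library and 183 in the dhet library. Immediate early genes had 0 of 23 apart and a median of −0.26, with Egr1 at 10.5 FPKM in dKO and 19.5 in dhet and Nr4a1 at 16.4 FPKM in dKO and 12.7 in dhet. The sources at hand do not state the time of day of tissue collection.

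Imprinted genes, where repressive chromatin silences 1 parental copy, were mostly a little lower in the dKO library. Of 25 measured 2 were at least 2-fold lower, 0 were higher and 22 lay below 0 (median −0.24), where 8689 of all 14351 did (median −0.06). Ndn, a growth-restraining gene of neurons, was at 2.60 FPKM in the dKO library and 8.51 in the dhet library. Meg3, a maternally expressed long RNA that shares its deposited locus with 2 other symbols, was at 11.9 FPKM in dKO and 29.6 in dhet. The abundant H19 was at 16.9 FPKM in the dKO library and 21.6 in the dhet library, and Igf2 at 42.8 FPKM in dKO and 41.3 in dhet.

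Some large single ratios belong to symbols that share a deposited locus. Ccl21a was at 19.4 FPKM in the dKO library and 0.00231 in the dhet library, but it shares its locus with Gm1987, and the pair summed to 19.5 FPKM in dKO and 20.6 in dhet. Hist1h2ap, at 6.63 FPKM in dKO and 0.000291 in dhet, and Hist1h2ao, with a listed 0 in the dKO against 5.92 FPKM in the dhet, share a locus in the same way. Hbb-b1, at 24.8 FPKM in the dKO library and 3.18 in the dhet library, went against Hbb-b2, at 101 FPKM in dKO and 306 in dhet, and with Beta-s these beta globin symbols summed to 348 FPKM in dKO and 788 in dhet. Of the 395 2-fold genes other than receptors, 78 share a locus with another symbol. The share among all genes compared is not given here. Summed over their symbols, 17 of these 74 loci were still 2-fold apart. The symbol 4833413D08Rik was at 14843 FPKM in the dKO library but has 0 listed for the dhet library, and a 0 at that level can be a failed estimate.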

How the data were processed

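The values used are FPKM per gene symbol as the authors deposited them, in the dKO and dhet columns of a table of the postnatal libraries, and on a second table of the embryonic ones. The submitters' processing notes name mm9 with TopHat, Cufflinks and Cuffdiff; versions, the annotation and the treatment of reads with several matches were not given in the sources used here. Total depth was not given either. The worth of 1 fragment, given below, was larger in the dKO library, so the library size behind its FPKM was smaller. Test columns were not used, nor were 6 further value columns whose headers name no sample. The embryonic and postnatal tables were scaled separately and are not compared in level.

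Ratios are dKO over dhet on log2(FPKM + 1), or log2(FPKM + 0.1) for receptors, counted at 2-fold and computed with pandas 2.3.3 and numpy 2.4.6; figures used matplotlib 3.10.9. No test was possible with 1 library per genotype. No fold is given against a value listed at 0. Symbols of short RNAs were left out, and 20 compared symbols read as dates and name no gene. Coordinates are those of the deposited loci on mm9, written from 1. The worth of 1 fragment, 0.0759 FPKM times kb in the dKO and 0.0626 in the dhet, was read from the steps of low receptor values; 79.4% and 76.1% of low values were whole within 0.1 fragment, and the method was tested on simulated data. Intervals are exact binomial (Clopper-Pearson, scipy 1.17.1). Promoters were matched by symbol to a RefSeq table for 12022 of 15280 compared genes.

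The gene lists and the comparison were chosen with earlier results of these data known. Genes named are the targeted genes and the H4K20 list, the 15 highest and 15 lowest other genes with 5 FPKM or more in either library (predicted or unnamed loci such as 4833413D08Rik, short RNAs and date symbols excepted), the 10 most abundant and the 10 highest and 10 lowest receptors, and members of each list and cluster; further list members, the secreted proteins outside the list and the chromosome 7 group near Olfr1348 were chosen after their values were seen. A few genes of these lists are not reported here.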

Additional observations from a re-analysis of the deposited data

How the results depend on the processing

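Every count rests on 1 library per genotype, so leaving out a library was not possible, and no paired analysis was possible because each genotype had 1 library. Of other genes, 99 were higher and 296 lower. The counts were 252 and 755 with a pseudocount of 0.1 FPKM, and 28 and 141 with a minimum of 5 FPKM. They were 173 and 867 after rescaling to TPM, and 24 and 52 at 3-fold. TPM values were larger than FPKM while pseudocount and minimum stayed at 1, so 15367 genes entered and the pseudocount weighed less. The TPM counts therefore mix scaling with that change. Counts stayed within 1.5 times the reported ones in the other settings. These were the dKO divided by the median ratio (0.969 over 9468 genes), short RNAs kept, or genes listed at 0 left out. Without a minimum they cannot differ, since with a pseudocount of 1 a gene under 1 FPKM cannot reach 2-fold. Summed by locus there were 76 and 264, and without the other-tissue lists and collagens 92 and 250; both settings were added after seeing the data. Of receptors, 179 were higher and 124 lower. The counts were 58 and 35 with a pseudocount of 1 FPKM, 84 and 37 with a minimum of 2 FPKM, and 76 and 69 at 3-fold. They stayed within 1.5 times in the other receptor settings, and division by summed receptor FPKM turned the balance, with 129 higher and 162 lower. Values of the receptor sheet gave the same counts. The values of the authors' comparison sheet were not run, because its value columns name no sample. Of 154 list medians under other settings 135 moved by less than 0.1, 18 by more, and, of medians of 0.2 or more in size, 1 changed sign: that of B cells, −0.30 over 6 genes, was 0.0405 with a minimum of 5 FPKM, where 3 genes remained. Of 540 values of the 270 named genes 518 kept their side of 2-fold and no 2-fold difference changed direction. Low genes carry most of what moves: under a pseudocount of 0.1 FPKM the skeletal muscle median was −3.94, and with a minimum of 5 FPKM that of cartilage and bone was −1.35.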

Other observations

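Families that belong to no list above showed scattered single differences. Trace amine and taste receptors, which olfactory and brush cells carry at low levels, had 3 of 13 members at least 2-fold higher in the dKO library and 0 lower (median 0.42). Among all genes other than receptors 0.69% were higher, but 1.87% at a mean of 1 to 2 FPKM and 6.53% under 1 FPKM. The list median was 0.69 with a pseudocount of 0.1 FPKM. Taar8b was at 2.24 FPKM in the dKO library and 0.418 in the dhet library, and Tas2r108 was at 1.37 FPKM in dKO and listed at 0 in dhet. Both passed the minimum of 1 FPKM through the dKO library alone, which fixes their direction. Genes of the enamel list went apart: Amelx was at 19.7 FPKM in the dKO library with 0 listed for the dhet library, and Ambn was at 4.17 FPKM in dKO and 0.154 in dhet, whereas Odam was at 73.5 FPKM in dKO and 103 in dhet. Slc24a4, which is also on the mature neuron list, was at 48.6 FPKM in the dKO library and 40.4 in the dhet library. The detoxifying enzyme Cyp1a1, a target of the aryl hydrocarbon receptor, was at 18.03 FPKM in the dKO library and 6.90 in the dhet library, while its relative Cyp1a2 was at 140 FPKM in dKO and 171 in dhet. Of 35 cytochrome P450 genes 1 was 2-fold higher and 1 lower (median 0.03), against 0.69% and 2.06% of all genes other than receptors.

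Among brush and microvillar cell genes 1 of 14 was 2-fold lower, Ltc4s, which makes the leukotriene C4, at 0.291 FPKM in the dKO library and 4.60 in the dhet library. Their transcription factor Pou2f3 was at 1.32 FPKM in dKO and 2.78 in dhet, and Trpm5, their channel, at 1.15 FPKM in dKO and 1.57 in dhet. Of 28 proliferation genes 0 were 2-fold apart and 21 lay below 0 (median −0.19). Top2a was at 13.0 FPKM in the dKO library and 17.2 in the dhet library, and Pcna at 34.2 FPKM in dKO and 27.5 in dhet. Neutrophil and marrow genes were mixed, with Camp, an antimicrobial peptide, at 6.24 FPKM in dKO and 16.5 in dhet and Ltf, lactoferrin, which glands also secrete, at 135 FPKM in dKO and 89.4 in dhet.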
